A study of Rattus norvegicus with 4 samples.

Results

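MicroRNAs (miRNAs) in the callus, the tissue that forms around a broken bone, were compared between day 11 and day 5 of undisturbed healing. The comparison used the 2 control arrays among the 4 arrays of the series. All 727 rat miRNA probes of the array were taken as members, and 446 of them were detected on both control arrays, which is the condition for a difference to be computed. The animals were male Sprague-Dawley rats, 12 weeks of age, in which a closed transverse fracture of the right femoral shaft had been made over an intramedullary wire. Control rats had received sodium chloride as a sham injection and had a normal blood glucose. The other 2 arrays held callus of rats made diabetic with 40 mg/kg streptozotocin, a toxin of insulin-producing cells, given intravenously, with glucose over 300 mg/dl. Each array held RNA from callus tissue pooled from 5 animals, so that each day is represented by 1 pool, no difference has a replicate check, and no test was possible. The comparison asks which miRNAs differ between the earlier and the later callus when healing is not impaired.

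A miRNA is a short RNA that guides a silencing complex to messenger RNAs, and the bases near its 5′ end, the seed, carry most of the pairing. A closed fracture heals through a sequence of stages. A blood clot and an inflammatory infiltrate of leukocytes come first, mesenchymal progenitors then proliferate and form a cartilage callus, and the cartilage is later mineralised and replaced by bone. Because several miRNAs are made almost solely in chondrocytes, in skeletal muscle fibres or in blood cells, their levels in bulk tissue also carry information on which cells were harvested. In pooled bulk tissue, fewer cells of a type and less of an miRNA per cell cannot be told apart.

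The mature sequences of some miRNAs that were higher on day 11 are shown first: miR-140, miR-455 and miR-210, which have seeds of their own, and the 5p arms of the miR-181 family, which share a seed. They are written 5′ to 3′ from RefSeq (build GRCr8), and capitals mark the seed, bases 2 to 8.
miR-140-5p: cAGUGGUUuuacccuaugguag
miR-140-3p: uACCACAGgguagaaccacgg
miR-455-3p: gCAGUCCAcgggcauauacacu
miR-210-3p: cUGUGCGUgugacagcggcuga
miR-181a-5p: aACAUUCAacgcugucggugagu
miR-181b-5p: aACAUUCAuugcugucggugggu
miR-181c-5p: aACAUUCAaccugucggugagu
miR-181d-5p: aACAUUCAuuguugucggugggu
Both arms of miR-140 lie within chr19:52375314-52375373 on the plus strand, inside the annotated span of Wwp2, a ubiquitin ligase gene. miR-455-3p lies at chr5:81704881-81704902 on the plus strand within Col27a1, a gene for a cartilage collagen. miR-210-3p lies at chr1:205755946-205755967 on the minus strand.

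The sequences of miRNAs that were lower on day 11 are shown next. Those of the leukocyte miRNAs and of miR-499-5p have seeds of their own, and the others fall into pairs that share a seed, some of which differ by only 1 or 2 bases. Capitals again mark the seed.
miR-223-3p: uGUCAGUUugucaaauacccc
miR-142-5p: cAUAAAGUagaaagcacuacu
miR-142-3p: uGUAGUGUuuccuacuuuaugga
miR-499-5p: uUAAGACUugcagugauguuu
miR-1-3p: uGGAAUGUaaagaaguguguau
miR-206-3p: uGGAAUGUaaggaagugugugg
miR-133a-3p: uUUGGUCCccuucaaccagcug
miR-133b-3p: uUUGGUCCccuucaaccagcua
miR-19a-3p: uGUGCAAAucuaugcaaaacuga
miR-19b-3p: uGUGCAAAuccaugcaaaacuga
miR-17-5p: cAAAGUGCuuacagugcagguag
miR-20a-5p: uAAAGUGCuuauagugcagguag
The probes of miR-133a-3p and miR-133b-3p differ only at the last base (A22G from the b to the a form, counted from the 5′ end), and those of miR-19a-3p and miR-19b-3p differ only at U11C. How far such probes hybridise with each other's miRNA was not tested.

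A level is a blank-corrected intensity: the mean of the blank spots on an array was subtracted from each of its spots, and each array was then scaled to a median of 100 over the 400 miRNAs that all 4 arrays detected. A miRNA was detected where its spot exceeded the blank mean by 2 blank SD. This limit was passed by 504 miRNAs (69.3%) on the day 5 array and 501 (68.9%) on the day 11 array, with lowest detected levels of 10.2 and 11.5. Each difference is given as log2 of day 11 over day 5 with a technical error, made from the spread of the spike control spots (log2 SD 0.057 and 0.082 on the day 5 and day 11 arrays) and of the blank spots. It does not cover how animals, pools or hybridisations vary. The local background that the scanner recorded around a spot followed the spot itself on these arrays, most of all on day 11. It exceeded 50% of the spot for 241 detected miRNAs on day 5 and 366 on day 11. A correction with that local background (normexp) is therefore given beside a result where it changes the reading.

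Most miRNAs differed little between the days. Over the 446 miRNAs the median log2 difference was 0.028, the 25th and 75th percentiles were -0.42 and 0.42, and the median technical error was 0.17. A level at least 2-fold higher on day 11 was found for 31 miRNAs (6.95% of those measured), and 31 (6.95%) were at least 2-fold lower. Among the 219 miRNAs that reached a level of 100 on at least 1 of the days, 21 were 2-fold higher and 21 lower (9.59% each). Closest to the 2-fold limit were miR-878, at 223 on day 5 and 445 on day 11, which just reached it, and miR-532-5p, at 99.2 and 49.6, which just missed it. Of the 62 miRNAs beyond the limit, 39 had a local background above 50% of the spot on at least 1 of the arrays, as did 329 (73.8%) of all 446. With the local background correction, 10 of the 31 higher and 10 of the 31 lower miRNAs were again at least 2-fold different in the same direction. The sign was kept by 29 of the higher and 27 of the lower ones.

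**Figure D1:**
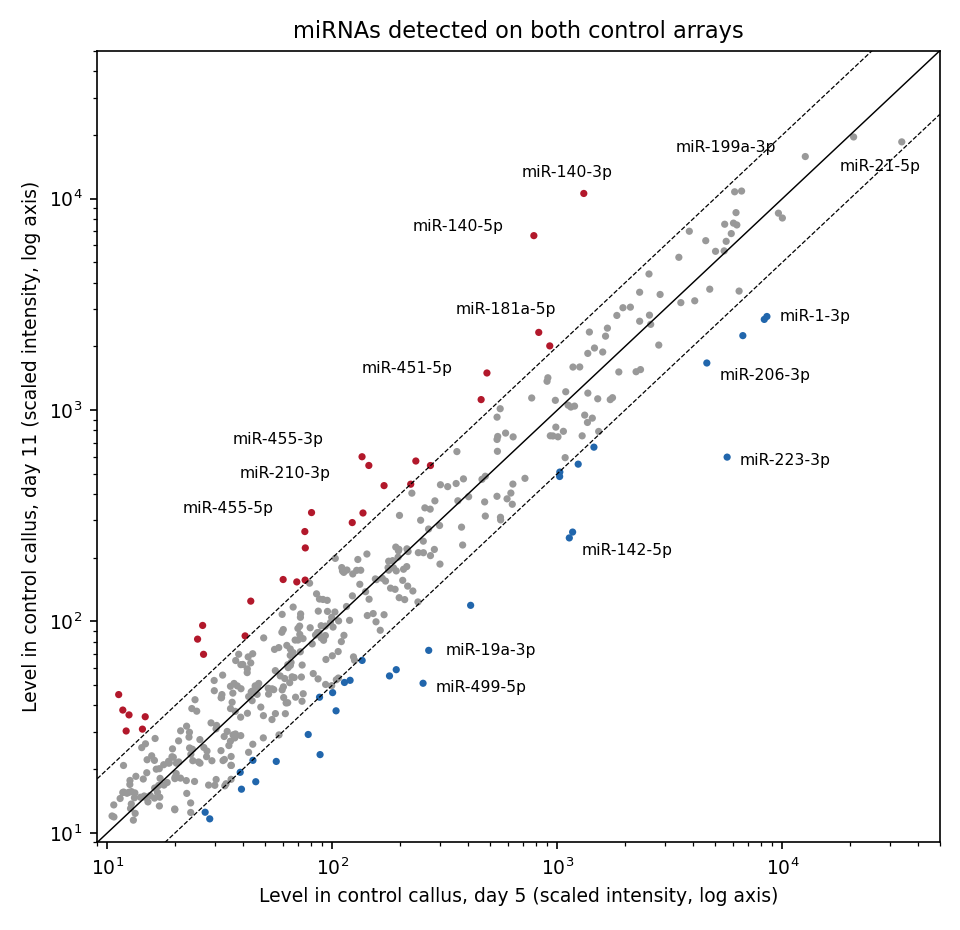
Level of each of the 446 miRNAs detected on both control arrays, with day 5 on the horizontal and day 11 on the vertical axis (scaled blank-corrected intensity, log axes). Each point is 1 miRNA and 1 spot per array, the solid line marks equal levels and the dashed lines a 2-fold difference. Red marks the 31 miRNAs at least 2-fold higher on day 11, blue the 31 at least 2-fold lower, and miR-140-5p, miR-140-3p and miR-223-3p lie farthest from the solid line among the bright miRNAs.

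The cartilage miRNAs were the ones most in excess on day 11. miR-140, which is made in chondrocytes from an intron of Wwp2 and is needed for normal skeletal growth in the mouse, had the 2 highest differences of the 446. The level of miR-140-5p was 785 on day 5 and 6675 on day 11, which is 8.50-fold higher (log2 3.09 ± 0.10 technical error). The opposite arm, miR-140-3p, stood at 1309 on day 5 and 10566 on day 11 (log2 3.01 ± 0.10). Both arms of miR-455, which shares its host gene Col27a1 with a collagen of growth cartilage, followed in size. miR-455-3p was at 135 and 601 (log2 2.15 ± 0.11) and miR-455-5p at 80.7 and 327 (log2 2.02 ± 0.14). The miR-675 hairpin, which is processed from the long noncoding RNA H19, differed far less. Its 5p arm was at 128 and 174 (log2 0.44 ± 0.12), and its 3p arm, at 74.0 and 82.9, differed by about its technical error (log2 0.16 ± 0.17). In all, 6 of 6 cartilage probes were measured on both arrays, 4 of them were at least 2-fold higher, 0 were 2-fold lower, and the list median was 2.08 against 0.028 over all miRNAs. The local background was below 50% of the spot for all 6 probes on both arrays, and with the local background correction miR-140-5p was at 3.17, miR-140-3p at 3.29, miR-455-3p at 2.52 and miR-455-5p at 1.77. The summed level of the list was 2512 on day 5 and 18426 on day 11. All 6 probes passed the limit of 2 blank SD on both days.

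miR-210-3p, which is induced by hypoxia-inducible factor in cells short of oxygen, was also higher on day 11. It was at 145 on day 5 and 546 on day 11, a 3.76-fold difference (log2 1.91 ± 0.11, 1.61 with the local background). The other arm of the same hairpin, miR-210-5p, was at 66.3 and 70.2 and differed by less than its technical error (log2 0.08 ± 0.19).

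The miR-181 family, known for its part in lymphocyte development and in muscle differentiation, was higher on day 11 in most of its members. Of 10 probes 9 were measured on both days, 7 were at least 2-fold higher and 0 lower, with a median of 1.26. The brightest member, miR-181a-5p, was at 826 on day 5 and 2327 on day 11 (log2 1.49 ± 0.10). miR-181b-5p was at 122 and 293 (log2 1.26 ± 0.12), and miR-181c-5p at 69.4 and 154 (log2 1.15 ± 0.15). miR-181d-5p, which differs from miR-181b-5p only at U12C, was higher by less than 2-fold, at 85.0 and 135 (log2 0.67 ± 0.14). The passenger arm miR-181a-1-3p was at 75.4 and 266 (log2 1.82 ± 0.14), while miR-181b-2-3p, near the detection limit at 17.1 and 14.7, was the 1 member below 0. The size of this excess depended on the background. The local background exceeded 50% of the spot on at least 1 array for 8 of the 9 members, and with its correction all 9 remained above 0, 0 were 2-fold higher and the median was 0.34.

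The clusters that encode miR-23, miR-27 and miR-24, transcribed together from chromosomes 19 and 17, were moderately higher. By blank-corrected values all 9 measured members of 11 probes were above 0, with a median of 0.68 and 0 beyond 2-fold. With the local background 7 were above 0 and 1 below, 2 were at least 2-fold higher, and the median was 0.56. miR-23a-3p was at 6580.1 on day 5 and 10848 on day 11 (log2 0.72 ± 0.10), and miR-23b-3p, which differs from it only at A19U, at 6130 and 10759 (log2 0.81 ± 0.10). miR-24-3p, whose sequence is the same from both clusters, was at 3854 and 7002 (log2 0.86 ± 0.10), though it stood at 0.00 with the local background, which was 73.3% of its spot on day 11. miR-27b-3p was at 2551 and 4396 (log2 0.79 ± 0.10).

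The cluster of miR-322, miR-503 and miR-351 on the X chromosome, whose members restrain the cell cycle and belong in part to the miR-15/16 seed family, was higher throughout by blank-corrected values. All 10 of its 10 probes were measured and all 10 were above 0, 3 of them at least 2-fold, with a median of 0.66. miR-322-3p was at 235 and 573 (log2 1.29 ± 0.11), miR-351-5p at 272 and 546 (log2 1.00 ± 0.10) and miR-503-5p at 539 and 924 (log2 0.78 ± 0.10). The arm miR-322-5p, which carries the AGCAGCA seed of miR-15 and miR-16, differed less, at 1635 and 2233 (log2 0.45 ± 0.10). With the local background 8 members were above 0 and 2 below, and the median was 0.45.

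The remaining miRNAs among the 15 highest differences were of mixed kinds. miR-451-5p, which is abundant in red blood cells and is matured without Dicer, was at 486 on day 5 and 1495 on day 11 (log2 1.62 ± 0.10). That sign rests on the background: the local background of its day 11 spot was 97.0% of the spot, and with it the difference was -2.34. Its cluster partner miR-144-3p was dim, at 26.5 and 95.6 (log2 1.85 ± 0.30, 0.23 with the local background). miR-208a-5p, from an intron of the heart myosin gene Myh6, was at 75.7 and 223 (log2 1.56 ± 0.14), and miR-208a-3p was not detected on either day. miR-365-5p was at 170 and 439 (log2 1.37 ± 0.11), miR-1298 at 458 and 1119 (log2 1.29 ± 0.10), miR-3065-3p at 43.3 and 125 (log2 1.52 ± 0.21), and miR-6318 at 60.4 and 158 (log2 1.39 ± 0.16). With the local background miR-208a-5p stood at 0.18 and the other 4 of these stood between 0.69 and 1.08.

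The leukocyte miRNAs were lower on day 11 than on day 5. miR-223-3p, the miRNA of neutrophils and other myeloid cells, had the lowest difference of the 446. It was at 5675 on day 5 and 598 on day 11, 9.49-fold lower (log2 -3.25 ± 0.10), and its local background on day 11 was 80.2% of the spot, so that the correction with it gave -4.69. miR-142, which is made in blood cells of all lineages, was lower in both arms. miR-142-5p was at 1129 and 248 (log2 -2.19 ± 0.11) and miR-142-3p at 1168 and 264 (log2 -2.14 ± 0.11). miR-150-5p, the miRNA of mature lymphocytes, was at 411 and 119 (log2 -1.79 ± 0.12, -0.94 with the local background). In contrast, miR-150-3p was at 81.3 and 78.2, a difference within its technical error (log2 -0.06 ± 0.17). Of 6 probes 5 were measured on both days, 4 were at least 2-fold lower, 0 higher, and the median was -2.14. The summed level of the list was 8477 on day 5 and 1308 on day 11.

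The inflammation-induced miRNAs miR-21, miR-146 and miR-155 differed less and not in 1 direction. miR-21-5p, which had the brightest spot on the day 5 array, was at 33896 on day 5 and 18534 on day 11 (log2 -0.87 ± 0.10, -0.33 with the local background). miR-146a-5p, a feedback inhibitor of NF-κB signalling, was at 1022 and 484 (log2 -1.08 ± 0.10), and miR-146b-5p at 630 and 358 (log2 -0.81 ± 0.10). miR-155-5p, a miRNA of activated macrophages and lymphocytes, was instead slightly higher, at 71.5 and 94.97 (log2 0.41 ± 0.17). Of 8 probes 6 were measured, 1 was 2-fold lower and 0 higher, and the median of -0.92 shrank to -0.0079 with the local background, under which miR-146a-5p stood at 0.054.

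Skeletal muscle miRNAs were bright on day 5 and about 3-fold lower on day 11. miR-1-3p, which drives muscle differentiation, was at 8527 and 2767 (log2 -1.62 ± 0.10). miR-133a-3p, which is transcribed with miR-1 from chr18:2157886-2160401 on the minus strand, was at 6665 and 2246 (log2 -1.57 ± 0.10). miR-133b-3p was at 8301 and 2680 (log2 -1.63 ± 0.10), and miR-206-3p, which is restricted to skeletal muscle and its satellite cells, at 4611 and 1667 (log2 -1.47 ± 0.10). These 4 spots differed by nearly the same factor, and their local background stayed below 50% of the spot on both arrays. miR-499-5p, made within the slow myosin gene Myh7b, was dimmer and by blank-corrected values differed more, at 253 and 50.9 (log2 -2.31 ± 0.19). Its local background was 70.4% of the spot on day 11. With the local background it stood at -1.52, and the 4 bright probes stood between -1.80 and -1.35. Of 14 muscle probes 8 were measured on both arrays, 5 were at least 2-fold lower, 1 (miR-208a-5p) was 2-fold higher, and the median was -1.52. The list's summed level was 28576 on day 5 and 9700.2 on day 11. These are markers of a tissue other than callus, and the part of muscle tissue in the differences of other miRNAs was not tested.

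The proliferation cluster miR-17-92, which is driven by Myc and is active in dividing cells, was lower on day 11. At its locus on chr15:98587861-98588622, plus strand, 7 of 7 miRNAs measured on both arrays were below 0 and 4 were at least 2-fold lower, with a median of -1.12. miR-19a-3p was at 268 and 72.9 (log2 -1.88 ± 0.15), miR-18a-5p at 192 and 59.1 (log2 -1.70 ± 0.18), miR-19b-3p at 1236 and 554 (log2 -1.16 ± 0.10), and miR-17-5p at 1452 and 667 (log2 -1.12 ± 0.10). With the local background these 4 stood at -0.88, -1.19, -0.23 and -0.64 in the same order, so that of them only miR-18a-5p stayed 2-fold lower. By blank-corrected values miR-20a-5p, at 1082 and 595 (log2 -0.86 ± 0.10, -1.10 with the local background), and miR-92a-3p, at 198 and 129 (log2 -0.61 ± 0.12), were lower by less. miR-17-5p, miR-19b-3p and miR-92a-3p are also encoded on the X chromosome, and their probes do not separate the 2 loci. Counting also the arms of the X chromosome copy, 8 of 15 probes were measured, and miR-92a-2-5p, at 103 and 198, was the 1 member above 0 (log2 0.95 ± 0.13). The list median was -0.99, and -0.61 with the local background. The paralogous miR-106b-25 and miR-106a-363 clusters were lower by less, with 1 of 8 measured members of 10 probes at least 2-fold lower and a median of -0.40. After correction for the local background 4 of the 8 were above 0 and 4 below, and the median was -0.076. miR-20b-5p was at 1024 and 508 (log2 -1.01 ± 0.10, 0.076 with the local background), miR-106b-5p at 717 and 475 (log2 -0.59 ± 0.10) and miR-93-5p at 634 and 446 (log2 -0.51 ± 0.10).

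**Figure D2:**
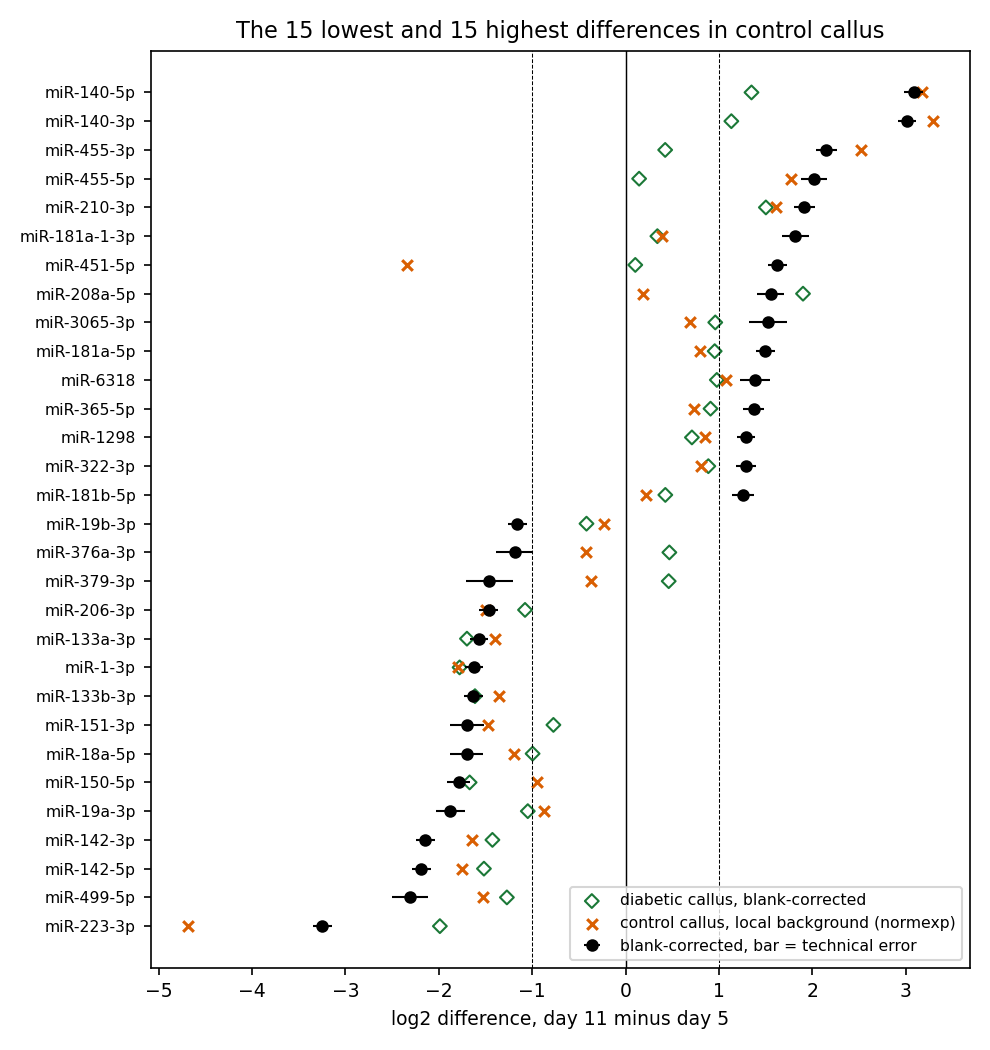
log2 difference of day 11 minus day 5 for the 15 highest and 15 lowest differences among miRNAs that reached a level of 100 (vertical axis, 1 miRNA per row). Filled circles are blank-corrected values of control callus with the technical error as a bar, crosses the same arrays corrected with the local background, and open diamonds the blank-corrected values of diabetic callus. The crosses of miR-140 and miR-455 lie close to their circles, that of miR-451-5p lies at -2.34 on the other side of 0, and the diamonds of miR-379-3p and miR-376a-3p lie above 0.

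The imprinted Dlk1-Dio3 cluster on chromosome 6, a long array of miRNAs expressed from the maternal chromosome in mesenchymal and neural tissue, gave mostly small differences. Of 90 probes 58 were measured on both arrays, 8 were at least 2-fold lower, 0 were 2-fold higher, 38 were below 0 and 20 above, and the median was -0.43. Most members were dim: 53 of the 58 had a local background above 50% of the spot on at least 1 array. The brightest, miR-494-3p, was at 1954 and 3044 (log2 0.64 ± 0.10, -0.61 with the local background), and miR-487b-3p was at 1509.8 and 1129 (log2 -0.42 ± 0.10). miR-379-3p was at 104 on day 5 and 37.7 on day 11 (log2 -1.46 ± 0.25) and miR-376a-3p at 120 and 52.6 (log2 -1.19 ± 0.20). With the local background these stood at -0.37 and -0.42, and the median of the list was -0.15.

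Markers of vessel walls did not differ alike. miR-126a, which lies within Egfl7 and marks endothelial cells, was lower in both arms. miR-126a-3p was at 6414 and 3649 (log2 -0.81 ± 0.10) and miR-126a-5p at 559 and 302 (log2 -0.89 ± 0.10). The local background correction gave -1.78 for miR-126a-3p and a median of -1.34 for both arms. The 4 smooth muscle probes went both ways by less than 2-fold. miR-143-3p was at 2595 and 2539 (log2 -0.03 ± 0.10) and miR-145-5p at 978 and 1110.2 (log2 0.18 ± 0.10). miR-143-5p was at 539 and 725 (log2 0.43 ± 0.10) and miR-145-3p at 32.6 and 21.9 (log2 -0.57 ± 0.45), and the median was 0.08, between -0.0047 and 0.15 over 5 other scalings of the arrays.

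Most markers of tissues that a callus should lack were at or near the detection limit. Of the 2 probes of miR-122, the miRNA of liver, 1 was detected on day 11, at 15.8, and 0 on day 5. Of 14 epithelial probes of the miR-200, miR-203 and miR-205 groups, 3 were detected on both days, with a median of -0.27 (0.28 with the local background): miR-205 at 49.3 and 35.8, miR-200b-5p at 34.0 and 30.1, and miR-200a-5p at 25.8 and 21.3. Another 3 were detected on day 11 only. The neuronal miR-124-3p was at 10.5 on day 5 and not detected on day 11, and of 15 neuronal probes 9 were detected on both days, with a median of 0.54 and 2 dim probes at least 2-fold higher (miR-129-2-3p, at 11.7 and 38.0, and miR-137-5p, at 14.7 and 35.4). Arms of miR-128, which is on the neuronal list, were well above the limit: miR-128-2-5p was at 556 and 1013 (log2 0.86 ± 0.10), miR-128-1-5p at 87.5 and 128, and miR-128-3p at 91.3 and 81.4. Also bright was the probe miR-375-5p, from a hairpin best known from pancreatic islets, with 20707 on day 5 and 19553 on day 11 (log2 -0.08 ± 0.10). The probe of the opposite arm, miR-375-3p, was not detected on either day.

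Several broadly expressed families showed small differences that ran the same way in most members. The let-7 family, which accumulates as cells differentiate, was slightly higher: 10 of 12 measured members were above 0, 0 reached 2-fold, and the median was 0.17. let-7a-5p was at 6056 and 7649 (log2 0.34 ± 0.10), let-7c-5p at 6216 and 8577 (log2 0.46 ± 0.10) and let-7d-5p at 5041 and 5626 (log2 0.16 ± 0.10). The miR-29 family, which represses collagen messenger RNAs, was lower in its 3 main arms. miR-29a-3p was at 2339 and 1552 (log2 -0.59 ± 0.10), miR-29b-3p at 1428 and 915 (log2 -0.64 ± 0.10) and miR-29c-3p at 558 and 311 (log2 -0.84 ± 0.10). In the miR-30 family 9 of 10 measured members were below 0, with a median of -0.44, and miR-30c-1-3p, at 26.7 and 69.8, was the 1 above it. Under the local background correction 5 members of the miR-30 family were above 0 and 5 below, and the miR-29 median was -0.18. Both arms of miR-378a, from the gene of a metabolic coactivator, were lower, miR-378a-3p at 1524 and 791 (log2 -0.95 ± 0.10).

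By blank-corrected values the listed miRNAs of skeletal mesenchyme and osteoblast differentiation stayed within 2-fold, apart from the dim miR-338-3p. miR-199a-3p, a miRNA of skeletal mesenchyme, was at 12629 and 15798 (log2 0.32 ± 0.10), and miR-214-3p, transcribed with it, at 1256 and 1597 (log2 0.35 ± 0.10), though with the local background these stood at 0.00 and -0.22. The list for osteoblast differentiation was built by hairpin name and holds both arms, whichever of them is known to act there. Its 2 brightest probes were higher on day 11, miR-204-3p at 2318 and 3604 (log2 0.64 ± 0.10, 0.30 with the local background) and miR-211-3p at 1386 and 2336 (log2 0.75 ± 0.10, -0.38 with the local background). The Runx2 regulator miR-204-5p was at 167 and 159.8 (log2 -0.06 ± 0.12) and miR-335 at 542 and 749 (log2 0.47 ± 0.10). The 8 measured members of that list had a median of 0.08, between -0.014 and 0.15 over 5 other scalings, and 1, miR-338-3p, at 39.4 and 16.1, was 2-fold lower (0.048 with the local background). miR-100-5p was at 1836 and 2799 (log2 0.61 ± 0.10) and miR-125b-5p at 5536 and 7557 (log2 0.45 ± 0.10). For miR-125b-5p and for miR-26a-5p, at 5620 and 6273, the local background on day 11 was 100.3% and 106% of the spot, so that the correction gave -6.56 and -6.54 and carries no usable value for them. Of the 8 measured miRNAs of the Hox gene clusters, 6 were above 0 and 0 reached 2-fold, with miR-615 the highest at 225 and 404 (log2 0.84 ± 0.11). The miR-34 family, a set of p53 targets, had a median of -0.05 over 5 members, between -0.13 and 0.021 over the other scalings, and miR-221-3p, which restrains vessel growth, was at 475 and 367 (log2 -0.37 ± 0.10). In the list of the miR-15/16 seed family, which also counts opposite arms without that seed, 5 of 8 measured members were above 0. The list median was 0.36 (0.014 with the local background), and the 5 measured miRNAs that carry the AGCAGCA seed had a median of 0.30. The cluster within the chloride channel gene Clcn5 had 7 of 8 measured members below 0 and a median of -0.21.

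**Figure D3:**
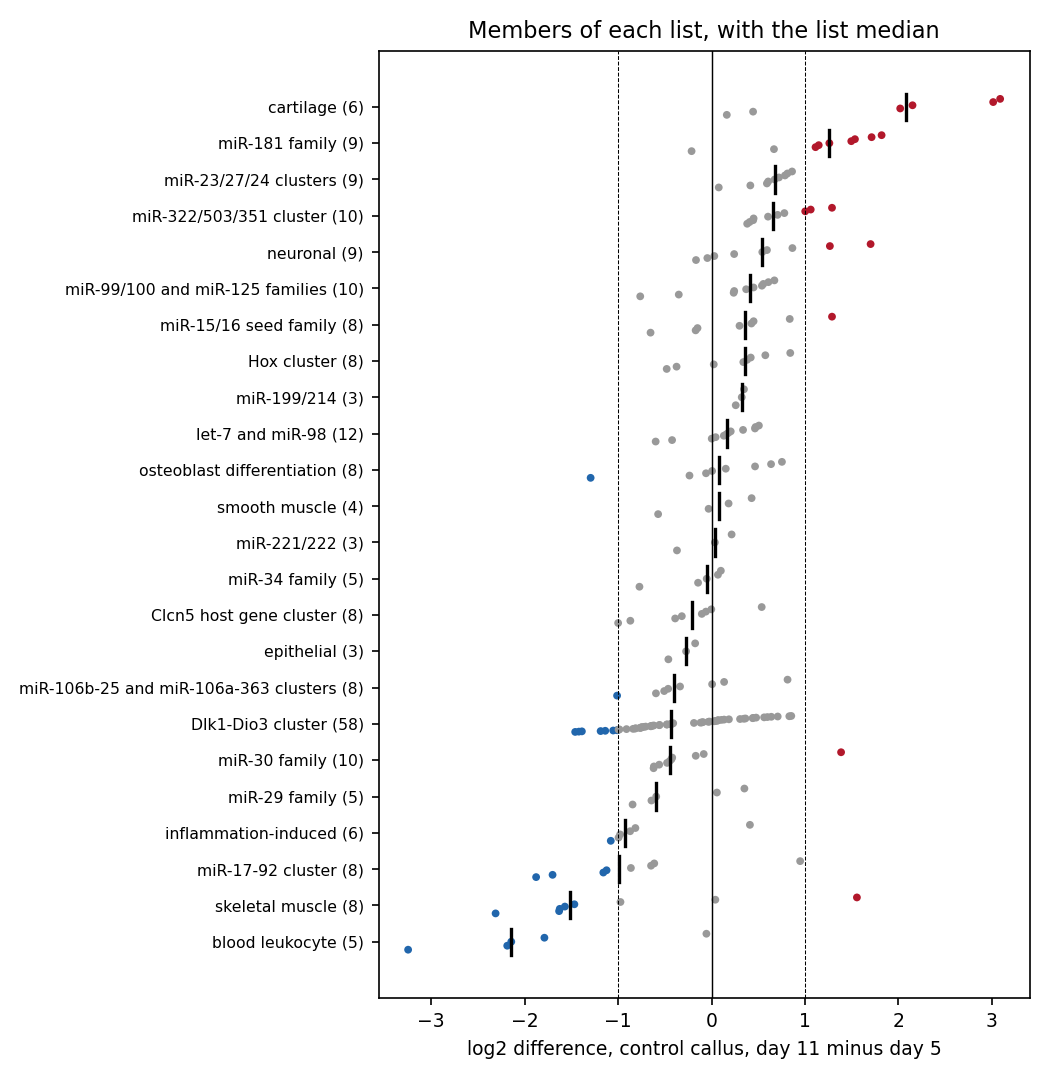
log2 difference of day 11 minus day 5 in control callus for the members of each list with at least 3 members measured on both arrays (number measured in brackets). Each point is 1 miRNA, red at least 2-fold higher, blue at least 2-fold lower, grey between, and the black bar is the median of the list. The cartilage list (median 2.08) lies at the top and the blood leukocyte list (median -2.14) at the bottom, and most other medians lie between -1 and 1.

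The brightest spots were largely the same on both days. Among the 10 highest levels of each array 6 miRNAs were shared. The 10 highest levels on day 5 included miR-1-3p, miR-133a-3p and miR-133b-3p, of which none was among the 10 highest on day 11, when miR-140-3p was. miR-16-5p was at 9592 and 8525 (log2 -0.17 ± 0.10), and miR-347 at 9988 and 8088 (log2 -0.30 ± 0.10). Of the 113 miRNAs detected on 1 of the 2 arrays only, 55 were on day 11 and 58 on day 5, nearly all close to the limit. The brightest of them was miR-344a-3p, at 111 on day 5 and not detected on day 11, hence at least 9.67-fold lower by the bound given below. Neither diabetic array detected it, so its day 5 level rests on 1 spot of the 4 arrays. Next on day 5 came miR-139-5p, at 43.4, at least 3.79-fold lower on day 11, then miR-496-3p at 33.1, miR-369-5p at 31.5 and miR-363-3p at 30.7. On day 11 the brightest were miR-203a-3p, at 45.4 with a local background of 96.5% of the spot, and miR-3588, at 43.5, at least 4.44-fold and 4.25-fold higher than on day 5, then miR-30d-3p at 39.7, miR-96-3p at 32.4 and let-7i-3p at 30.2. The bound is the measured level over the lowest level detected on the other array, or over the miRNA's own value there where that was higher. It rests on the limit of 2 blank SD, which some negative control spots also passed, and would be smaller with a limit above those spots.

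By blank-corrected values members of 1 seed family mostly differed in 1 direction. Of 336 seeds among the measured miRNAs with a RefSeq sequence, 11 were shared by at least 3 miRNAs. All members were above 0 for 4 of these seeds and below 0 for 5, while 235 of all 446 miRNAs were above 0 and 211 below. With the local background several of these seeds had members on both sides of 0. Then miR-20b-5p of AAAGUGC stood at 0.076, and miR-130a-3p of AGUGCAA at 0.44. In GUAAACA miR-30e-5p stood at 0.048, in AGGUAGU miR-196b-5p at -0.57 and in CCCUGAG miR-125a-5p at -1.36. The highest medians belonged to ACAUUCA of the miR-181 family (1.20), CCCUGAG of miR-125a-5p, miR-125b-5p and miR-351-5p (0.45) and AGGUAGU of the miR-196 family (0.42). The lowest belonged to AAAGUGC of miR-17-5p, miR-20a-5p, miR-20b-5p, miR-93-5p and miR-106b-5p (-0.86), AGCACCA of the miR-29 family (-0.64) and AUUGCAC of miR-25-3p, miR-32-5p, miR-92a-3p and miR-92b-3p (-0.54). Members of a seed family often differ by few bases, and the part of shared hybridisation in this was not tested. Over the 36 pairs of measured miRNAs whose sequences differ at 1 or 2 positions, the median gap between the log2 differences was 0.18 and the largest 0.87, between miR-34b-5p and miR-34c-5p. Within such pairs the probes did not always move as 1: miR-19a-3p and miR-19b-3p, which differ at U11C, stood at -1.88 and -1.16.

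Genomic neighbours shared their direction in 13 of 33 clusters, where hairpins within 10000 bases of each other on 1 strand were joined and at least 3 miRNAs were measured. All miRNAs of 9 clusters were above 0 and all of 4 were below, while 235 of all 446 measured miRNAs were above 0 and 211 below. The highest median was that of miR-181a-1 and miR-181b-1 at chr13:52037081-52037323 on the plus strand, where 4 of 4 arms were at least 2-fold higher (from 1.26 to 1.82). With the local background these 4 arms stood between 0.17 and 0.80, short of 2-fold. The sister locus of miR-181c and miR-181d at chr19:40888314-40888545, plus strand, had a median of 1.13 over 4 arms. With the local background its arms stood between 0.14 and 0.66. miR-322 and its neighbours at chrX:137720952-137726219, minus strand, stood at 0.66 over 10 arms, and the 2 clusters of miR-23, miR-27 and miR-24 at chr19:40859481-40859798 and chr17:1818672-1819462, both on the minus strand, at 0.70 and 0.79. The lowest medians were those of the miR-1 and miR-133a locus (-1.57, 3 arms) and of miR-17-92 (-1.12). Some probes, such as miR-24-3p, belong to more than 1 locus and were counted at each.

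The arms of a hairpin come from 1 precursor, and at some of the hairpins with large differences they were close. miR-140 (3.09 for the 5p and 3.01 for the 3p arm), miR-455 (2.02 and 2.15), miR-142 (-2.19 and -2.14) and miR-126a (-0.89 and -0.81) had arms that differed by less than the technical error of that gap. Over all 108 hairpins with both arms measured, 67 had arms of the same sign and the median gap was 0.50. Where at least 1 arm was 2-fold different, 20 of 25 hairpins had arms of the same sign and the median gap was 0.84. Among the 30 hairpins whose 2 arms each reached a level of 100, 22 had the same sign and the median gap was 0.48. The widest gap was at miR-210 (0.08 for the 5p and 1.91 for the 3p arm), and miR-150 was similar (-1.79 and -0.06). At 8 hairpins the arms had opposite signs and lay at least 2-fold apart, but only 2 of these were among the 30 whose arms each reached 100. At miR-365 the 5p arm was at 170 and 439 (log2 1.37) and the 3p arm at 375 and 279 (log2 -0.43). miR-20b-5p stood at -1.01, and miR-20b-3p, at 37.1 and 65.3, at 0.81. With the local background both arms of miR-20b were above 0, at 0.076 and 0.75. miR-151-3p was at 179 and 55.2 (log2 -1.70 ± 0.18), whereas miR-151-5p, at 299 and 284, was equal within its technical error (log2 -0.08 ± 0.11).

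**Figure D4:**
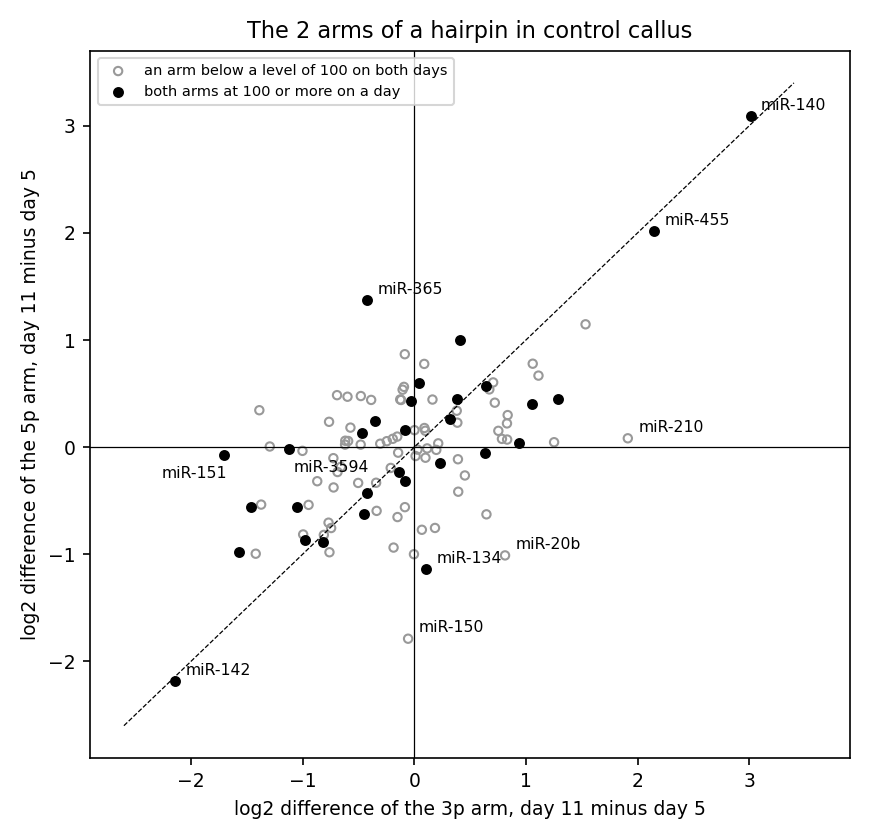
log2 difference of day 11 minus day 5 of the 5p arm (vertical) against that of the 3p arm (horizontal) for the 108 hairpins with both arms measured in control callus. Each point is 1 hairpin, filled where both arms reached a level of 100 on at least 1 day, and the dashed line marks equal differences. miR-140, miR-455 and miR-142 lie on the line, and miR-365, miR-151 and miR-134 lie away from it.

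The difference between the days also moved with base composition. Across the 403 measured miRNAs with a RefSeq sequence, Pearson's r between the GC share and the log2 difference was 0.27, as a description, since all points share the same 2 arrays. The 105 miRNAs with the lowest GC shares, 27.3 to 43.5%, had a median of -0.37, and the 101 with the highest, 58.3 to 77.3%, a median of 0.16. The cartilage list had a median GC share of 54.5% over the 5 members with a sequence, and the blood leukocyte list one of 34.8% over 3. After a linear trend on GC share was removed, 24 miRNAs were at least 2-fold higher and 25 lower among the 403, with list medians of 2.10 for cartilage, 1.37 for miR-181, -0.81 for miR-17-92, -1.28 for muscle and -1.81 for leukocytes.

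The diabetic pools, which share no array with the control pools, were set beside these values. In diabetic callus 17 of 444 miRNAs were at least 2-fold higher on day 11 (3.83%) and 36 lower (8.11%). Of the 31 miRNAs higher in control callus, 29 were measured on both diabetic arrays, 25 of them were above 0 there, and 8 were 2-fold higher. Their medians were 1.39 in control and 0.71 in diabetic callus. Of the 31 lower ones, 29 were measured, 22 were below 0, and 11 were 2-fold lower, with medians of -1.42 and -0.77. For reference, 204 (51%) of the 400 miRNAs detected on all 4 arrays were above 0 in diabetic callus and 196 (49%) below. These miRNAs were chosen on the control arrays, so the medians are a description, and the difference between the time courses was not tested.

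miR-140 and miR-455 were higher on day 11 by less in the diabetic pools. miR-140-5p was at 829 on day 5 and 2111 on day 11 (log2 1.35 ± 0.12) and miR-140-3p at 1454 and 3187 (log2 1.13 ± 0.12). miR-455-3p was at 175 and 235 (log2 0.42 ± 0.13) and miR-455-5p at 99.3 and 109.8 (log2 0.15 ± 0.16). On day 11 these levels were below those of the control pool. miR-675-3p went the other way, at 72.7 and 34.2 (log2 -1.09), and miR-675-5p was at 126 and 149. The median of the 6 probes was 0.33, against 2.08 in control callus. In the diabetic pools the local background was 62.6% of the day 11 spot for miR-455-3p and 70.3% for miR-675-3p. For miR-455-5p it was 55.4% on day 5 and 54.4% on day 11. In control callus the miR-455 shares lay between 24.7% and 48.3%. For both arms of miR-140 the diabetic shares lay between 5.86% and 15.7%. These diabetic differences are given without the local background correction. miR-451-5p was at 1357 and 1458 in the diabetic pools, near the control level of day 11 on both days.

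Several muscle miRNAs, miR-150-5p and miR-210-3p had the same direction in the diabetic pools as in the control pools. miR-1-3p was at 8787 and 2564 (log2 -1.78 ± 0.12), miR-133a-3p at 7192 and 2216 (log2 -1.70 ± 0.12) and the muscle list median was -1.42. miR-206-3p, at 4931 and 2338 (log2 -1.08 ± 0.12), and miR-499-5p, at 159 and 66.1 (log2 -1.27 ± 0.18), stood at -1.47 and -2.31 in control callus. miR-150-5p was at 392 and 123 (log2 -1.67 ± 0.14). miR-210-3p was at 92.8 and 263, a 2.83-fold difference between levels that were below those of the control pools on both days. miR-223-3p, at 3130.4 and 789 (log2 -1.99 ± 0.12), was again lower on day 11, from a lower day 5 level than in control callus. In the Dlk1-Dio3 cluster the diabetic median was -0.014 over 60 members, with 29 above and 31 below 0.

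**Figure D5:**
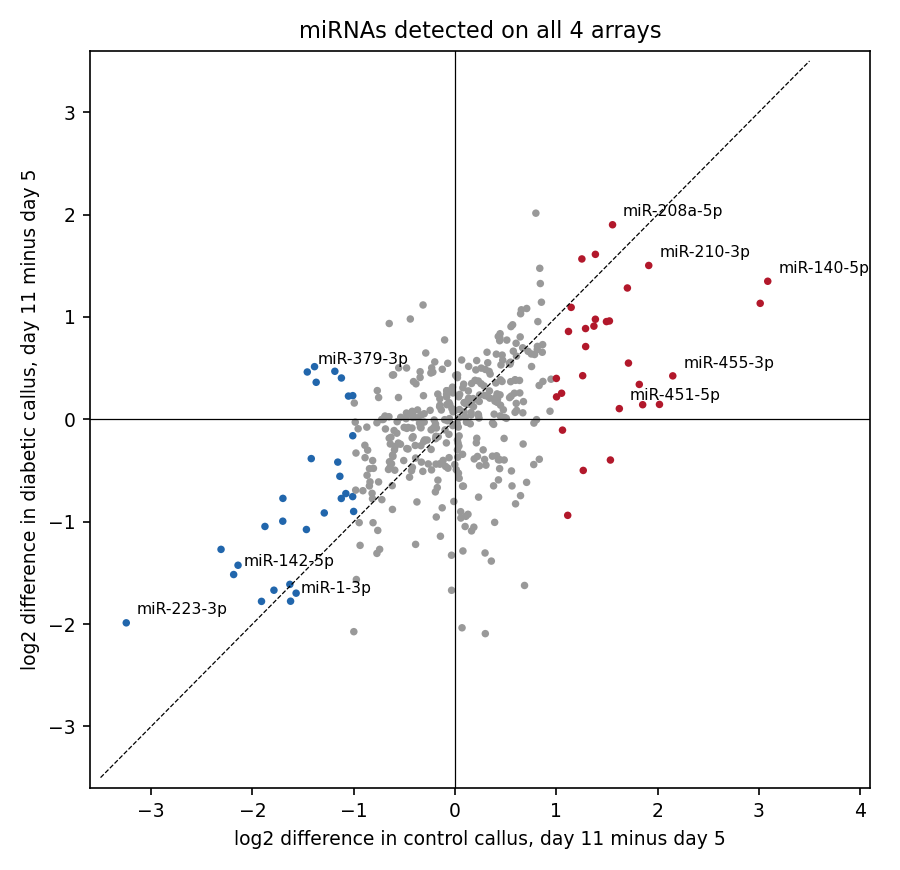
log2 difference of day 11 minus day 5 in diabetic callus (vertical) against that in control callus (horizontal) for the 400 miRNAs detected on all 4 arrays. Each point is 1 miRNA, red and blue mark those at least 2-fold higher or lower in control callus, and the dashed line marks equal differences. Pearson's r was 0.54 and 68.25% had the same sign, as a description, miR-140-5p and miR-455-3p lie below the line, and miR-379-3p lies above 0 in diabetic and below 0 in control callus.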

How the data were processed

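Per the labels' protocols, callus tissue of 5 animals per group and day was pooled, RNA was isolated with a column kit and labelled with Cy5, and 1 3D-Gene array was hybridised per pool. Per the file headers, the deposited scanner files hold, for each spot, a median intensity and a median local background, neither subtracted from the other. The authors' deposited value table holds 1 linear intensity per miRNA and array. Its processing is not stated here, and it served only as an alternative. Each array has 727 miRNA spots, 1504 blank spots and 8 spots of each spike control. The only spot marked not usable was a spike control on the day 5 array.

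The blank mean, with the top and bottom 5% of blank spots left out, was subtracted from each spot (Python 3.11.15, numpy 2.4.6, pandas 2.3.3). Detection took 2 blank SD above that mean, and each array was scaled to a median of 100 over the 400 miRNAs detected on all 4 arrays. The alternative with the local background used limma 3.58.1 in R 4.3.3 (normexp, offset 50, quantile). The computation was tested on simulated data. Names are those of the array design, and 653 of 727 matched a mature sequence in RefSeq (GRCr8). Overlaps with host genes are by position in RefSeq.

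The members and lists were chosen with earlier results of these data known. The text names the 15 highest and 15 lowest differences among miRNAs with a higher level of at least 100, the 10 brightest on each array, the 5 brightest detected on 1 array only, members that describe a list, and the seed families with extreme medians. Within a list, members were not always taken in order of brightness. miR-878, miR-532-5p, miR-34b-5p, miR-34c-5p, the members of hairpins with discordant arms and the dim members beyond 2-fold were named after their values were seen. With 1 array per group no p-value was computed, and the number of arrays limits the precision.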

Additional observations from a re-analysis of the deposited data

Results flagged for a closer look

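Among miRNAs that were at least 2-fold lower on day 11 in control callus and reached a level of 100, 4 had the opposite sign in diabetic callus. miR-379-3p stood at -1.46 in control and 0.46 in diabetic callus, and miR-376a-3p at -1.19 and 0.47. miR-3594-3p was at -1.12 and 0.40, and miR-411-3p at -1.05 and 0.23. miR-379-3p, miR-376a-3p and miR-411-3p lie in the Dlk1-Dio3 cluster. The control differences of these 4 with the local background were -0.37, -0.42, -0.16 and -0.82 in the same order, short of 2-fold. The difference between the groups was not tested, since each value rests on 1 pair of pools.

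Control spots outside the miRNA measurement were brighter than the detection limits, which were 132 on day 5 and 155 on day 11 as raw intensity. The QC-Probe spots averaged 142 and 177, with 63 and 77 of 88 above the limit. Negative Control 3 averaged 141 and 169, with 7 of 8 and 8 of 8 spots above it. S-Probe28 averaged 180 and 201. The labels and headers do not state what the QC-Probe and S-Probe28 spots carry. The detection limit was thus passed by spots named as negative controls. With a limit above the negative controls, 310 miRNAs instead of 446 were measured on both arrays, of which 22 were 2-fold higher and 21 lower.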

How the results depend on the processing

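No paired analysis was possible because each group and day has 1 array. The 2-fold counts of 31 higher and 31 lower stayed within 1.5 times, except as follows. They were 18 and 28 with the local background (normexp), where 39.1% of the 2-fold miRNAs were higher against 50% in the values of the report, 45 and 47 with the local background subtracted, 20 and 15 with a limit of 10 blank SD, and 11 and 12 where the local background was at most 50% of both spots, among 117 miRNAs. The last filter and the limit above the negative controls and the GC correction were chosen after seeing the data. The split moved to 27 and 41 (39.7% higher) scaled on the 75th percentile and to 23 and 39 (37.1%) with no blank spots left out, and to 22 and 34 (39.3%) with a limit of 3 blank SD. Subtracting the local background shifted the median difference by 0.18. The share of 2-fold miRNAs with the same sign in diabetic callus, 81.0%, was 97.1% with the limit of 10 blank SD, 95% above the negative controls and 100% with the background filter, and 71.4% with the authors' deposited values and 71.1% with no detection filter. The median gap between arms was 0.28 with the limit of 10 blank SD and 0.19 with the background filter.

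With normexp the list medians were -1.38 (muscle), -1.65 (leukocyte), -0.61 (miR-17-92) and 0.34 (miR-181). With the local background subtracted they were 2.29 (cartilage), -1.92 (leukocyte), -0.85 (miR-17-92) and 0.68 (miR-181). With no detection filter they were -0.25 (muscle), -1.97 (leukocyte) and -0.65 (miR-17-92), since members near the blank enter. The miR-17-92 median was -1.12 with the limit of 10 blank SD and -1.14 with the background filter, under which that of miR-181 was 0.67. With the GC trend removed they were -1.28 (muscle), -1.81 (leukocyte) and -0.81 (miR-17-92). The cause of these shifts was not tested. Among 2-fold results, signs turned under normexp for the erythroid median (-1.05), miR-451-5p (-2.34), miR-146a-5p (0.054), miR-137-5p (-0.013), miR-20b-5p (0.076), miR-382-5p (0.18) and miR-338-3p (0.048). Smaller medians also turned under normexp, to 0.020 for the miR-30 family, 0.28 for the epithelial list and -0.22 for the list of miR-214-3p. Among 2-fold results, signs turned with the local background subtracted for the erythroid median (-1.15), miR-451-5p (-2.94), miR-410-3p (0.15), miR-382-5p (0.73) and miR-338-3p (0.52). Of 764 values of 60 named miRNAs under the alternatives, 622 moved by no more than 1 technical error and 132 by more. The other 10 belonged to miRNAs at least 2-fold different and changed sign. Sign changes of smaller differences, such as that of miR-375-5p (-0.08, and 0.33 under normexp), are not among these 10. Over 14 alternatives miR-140-5p lay between 3.01 and 3.46 and miR-206-3p between -1.61 and -1.33. Levels near 10.2 and 11.5, the lowest detected on the arrays, carry little information.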

Other observations

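Some miRNAs that belong to no list above also lay beyond 2-fold, and are named here after their values were seen. miR-6332 was at 924 on day 5 and 2009 on day 11 in control callus (log2 1.12) and at 1210 and 2193 in diabetic callus (log2 0.86). miR-760-3p was at 137 and 325 in control callus (log2 1.25) and at 141 and 418 in diabetic callus (log2 1.57). miR-7a-5p was dim and lower on day 11 in both groups, at 88.1 and 23.4 in control callus (log2 -1.91) and at 93.6 and 27.3 in diabetic callus (log2 -1.78). miR-182 was close to the detection limit on day 5, at 11.2, and at 45.0 on day 11 (log2 2.01 with a technical error of 0.68). With the local background the control differences were 1.29 for miR-6332 and 1.02 for miR-760-3p. Those of miR-7a-5p (-0.60) and miR-182 (0.70) then fell short of 2-fold.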
